A study of Mus musculus with 92 samples.

Results

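Ribosome biogenesis and nucleolar genes were followed through single bone marrow progenitors of the mouse, in a list of 42 genes whose products make, modify or assemble ribosomes in the nucleolus. Of the 42, 41 were in the expression table, and 40 were detected (a value above 0) in 25% or more of the cells of a sort gate, GMP or CD11b+ GMP-P, and are described here as the members, of 23956 genes in the table and 7803 that passed the same rule. Polr1a, the largest subunit of RNA polymerase I, was above 0 in 11 of 45 cells of the GMP gate and 10 of 47 of the CD11b+ GMP-P gate and did not pass. Noc2l was not analysed here. All 40 members passed in GMP and 30 passed in both gates, so 10 entered only through GMP, the gate where they were detected more often.

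The nucleolus is where RNA polymerase I transcribes the ribosomal RNA precursor and where small nucleolar ribonucleoprotein particles (snoRNPs) methylate and pseudouridylate it. A series of assembly factors then cuts and folds the precursor with ribosomal proteins into the small and large subunits. The genes of this programme are transcribed strongly in growing and dividing cells, are classical targets of MYC, and are known to be turned down as neutrophil precursors leave the cell cycle and fill with granules.

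The cells came from crushed hindlimb bones of C57BL/6 mice that were homozygous for Gfi1-R412X (genotype Gfi1-R412X/R412X), a premature stop codon in the gene of the granulocyte repressor GFI1. Marrow was enriched on CD117 beads, sorted, and captured on a Fluidigm C1 chip, and each sample is 1 cell. There were 45 cells of the GMP gate (granulocyte-monocyte progenitors) and 47 of the CD11b+ GMP-P gate, both of this genotype, and 0 wild type cells. Ages and animals are not given, each gate carries 1 date code, and gate, date, capture and animal cannot be told apart. Each gate was therefore 1 library with no replicate: no test was run, no p-value is given, and an SD is the spread over cells. State names (Multi-Lin, cMoP, Mono, MP, Gran-1, Gran-2, Myelo-1, Myelo-2 and Myelo-4) are those of the authors' deposited table of 9 states, which does not say how they were made. States may rest on the same expression values, so differences between them are descriptions.

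Levels are in TPM, a share of each cell's transcripts scaled by transcript length, and differences are between means of log2(TPM + 1). A gene is called 2-fold lower or higher where that difference reached 1. TPM keeps no read depth, so the number of genes above 0 stands in for it: the median was 5611 genes in GMP and 4143 in CD11b+ GMP-P cells. The medians of Cd34 and Itgam followed the sort gates. Cd34 had a median of 244 TPM in GMP and 0 TPM in the other gate, and Itgam, which encodes CD11b, had 0 and 39.7 TPM. Single cells did not all follow: Cd34 was above 0 in 16 of 47 CD11b+ GMP-P cells and Itgam in 17 of 45 GMP cells. Kit, the gene of CD117, had a median of 1.44 TPM in GMP and 0 TPM in CD11b+ GMP-P, above 0 in 34 of 45 and 23 of 47 cells. Gfi1 was above 0 in 34 of 45 and 36 of 47 cells. Late granule genes summed to a median of 1586 TPM in GMP and 204345 TPM in the other gate, and erythroid, megakaryocyte and eosinophil lists had a median of 0 TPM in both gates. The basophil and mast cell list had a median of 660 TPM in GMP and 380 TPM in the other gate.

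The nucleolar score, the mean of log2(TPM + 1) over the 40 members in each cell, was 4.51 ± 0.97 (SD over 45 cells) in GMP and 2.0 ± 1.39 (47 cells) in CD11b+ GMP-P, a difference of -2.51. In GMP it ran from 1.54 through a median of 4.75 to 5.74, and in CD11b+ GMP-P from 0.04 through 1.92 to 5.10, so the gates overlapped. Of the 40 members, 35 were 2-fold or more lower in CD11b+ GMP-P, beside 39% of all 7803 genes. Among them 12 were 8-fold or more lower, a mark at which all genes were not counted. None of the 40 was at least 2-fold higher, where 2.72% of all genes were. The median member differed by -2.66 and the median gene by -0.74. All 40 differences were negative on TPM. With cells centred on their mean gene 36 were, all but Bysl, Nip7, Noc3l and Rrp12, and with cells set to an equal median of widely detected genes 28 were, with the median gene then at 0.91 and the median member at -1.01. Among the 30 members that passed in CD11b+ GMP-P itself, 27 were at least 2-fold lower, beside 41% of the genes that passed there.

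The members were closer between the gates in cells alike in the number of genes detected. In 21 pairs of cells, 1 from each gate, matched within 5% on genes detected, 19 members were 2-fold lower or more on the CD11b+ GMP-P side and the median member difference was -0.99, beside 14.4% of all genes and a median gene of -0.12. Without the Myelo states, 28 members passed the 2-fold mark on the low side, with a median of -1.65, beside 18.1% and -0.32 for all genes. The median member stayed below the median gene in both reduced sets of cells. The part of detection in the full difference was not tested.

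Within states, the score was highest in MP, Mono and cMoP cells of the GMP gate and was lower at each numbered state of the CD11b+ GMP-P gate from Gran-1 on. The 5 MP cells scored 4.24, 5.08, 5.21, 5.28 and 5.43, the 3 cMoP cells 4.20, 4.75 and 5.52, and the lowest, median and highest scores of 24 Mono cells were 2.97, 5.07 and 5.74. Gran-1 spanned 3.47, 4.11 and 5.28 in 6 GMP cells, and its 4 cells in CD11b+ GMP-P scored 2.78, 3.40, 4.57 and 5.10, so the ranges of this state overlapped between the gates. In CD11b+ GMP-P the lowest, median and highest scores were 1.43, 2.80 and 4.78 in 20 Gran-2 cells, 1.19, 1.49 and 2.63 in 3 Myelo-1 cells, 0.09, 0.67 and 1.3 in 15 Myelo-2 cells, and 0.04, 0.21 and 0.55 in 3 Myelo-4 cells. Neighbouring states overlapped along this order, but no Myelo-2 cell reached the lowest Gran-2 cell or the lowest Mono cell. Mono of GMP and Gran-2 of CD11b+ GMP-P overlapped, with 8 of 24 Mono cells at or below the highest Gran-2 cell. The 2 Gran-2 cells of GMP scored 2.73 and 3.71. In CD11b+ GMP-P, 1 Mono cell scored 3.50 and 1 Multi-Lin cell 3.59. Where no gate is named, Mono is that of GMP and Gran-2 that of CD11b+ GMP-P. Set against Mono across the gates, 33 members were lower by 2-fold or more in Gran-2 and 0 higher, beside 29% and 5.61% of all genes. For 39 of 40 the Gran-2 mean lay between those of Mono and Myelo-2. That order was not counted over all genes, whose median was also lower at both steps, by -0.48 and -0.93.

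**Figure D1:**
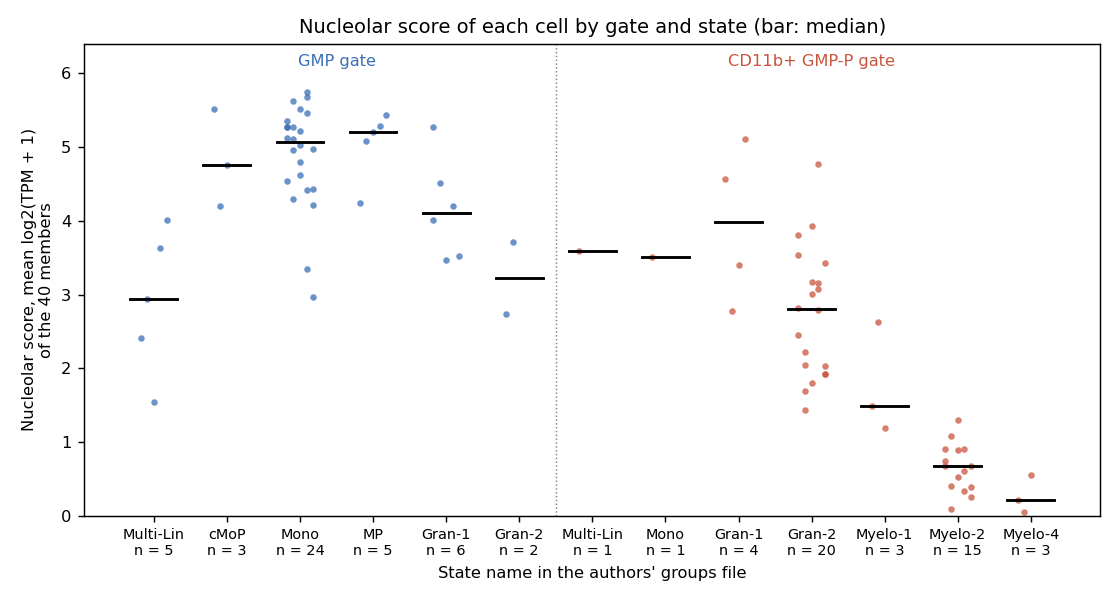
Nucleolar score (mean log2(TPM + 1) of 40 members) in every cell, by gate and state, with the median of each state. Mono cells of GMP centre on 5.07, Gran-2 cells of CD11b+ GMP-P on 2.80, and the 15 Myelo-2 cells lie between 0.09 and 1.3, under every Gran-2 cell.

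The number of members above 0 per cell followed the same order, with medians of 35 of 40 in Mono, 24 in Gran-2, 16 in Myelo-1, 9 in Myelo-2 and 5 in Myelo-4. Detection and granule content moved with it: the median number of genes detected was 5624, 4595, 4428, 2936 and 2192 in these states, and the granule lists took a median of 6.4%, 25.3%, 33.8%, 57.6% and 60.4% of TPM. With granule genes removed and TPM rescaled, the median member still differed by -2.60 between the gates and by -2.18 in Myelo-2 against Gran-2. The part of detection was not tested. With the mean of all 7803 genes subtracted in each cell, the median score was 1.88 in Mono, 1.17 in Gran-1 of GMP, 1.18 in Gran-1 of CD11b+ GMP-P, 0.21 in Gran-2, -0.84 in Myelo-1, -0.74 in Myelo-2 and -0.69 in Myelo-4. Against the average gene, then, the medians were lower at each state from Gran-1 to Myelo-1 and no lower in Myelo-2. With medians of 9 of 40 members above 0 in Myelo-2 and 5 in Myelo-4, values of 0 limited how much lower these states could be. The ranges overlapped: -0.95 to 1.5 in Gran-2, -1.19 to 0.12 in Myelo-1 and -1.29 to -0.12 in Myelo-2.

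Cells with few genes detected did not all have a low score. Between 2500 and 3500 genes, 13 Myelo-2 cells scored 0.34 to 1.3 with 6 to 15 members above 0, and 2 Gran-2 cells scored 1.43 and 1.92 with 15 each. A Gran-1 cell of GMP with 2775 genes scored 3.47 with 22 members, and a Multi-Lin cell of GMP with 3069 genes scored 1.54 with 14. The Gran-1 cell thus scored above every Myelo-2 cell at a similar number of genes.

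Gran-1 set against Mono inside the GMP gate showed members lower in Gran-1. The score differed by -0.72, and 17 of 40 members were at least 2-fold lower in Gran-1, beside 22.1% of all genes, while 4 were at least 2-fold higher, beside 13.4%. The median member differed by -0.88 and the median gene by -0.18. Small subunit assembly held 7 of its 10 members among the lower ones. Nop58 differed by -2.55 and Nolc1, a chaperone of snoRNPs, by -2.57, while Ltv1 (2.94), Nop2 (2.70), Nmd3 (2.02) and Pes1 (1.40) were higher in Gran-1.

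Gran-2 set against Gran-1 inside the CD11b+ GMP-P gate differed by -1.22 in score, with 22 of 40 members at least 2-fold lower, beside 27.1% of all genes, and 3 at least 2-fold higher, beside 13.6%. The median member differed by -1.20 and the median gene by -0.17. From mean TPM the score differed by -0.40. With a pseudocount of 10, 13 members were lower by 2-fold or more, beside 12.7% of all genes. Nop16, Wdr12, Gnl3, Tsr1 and Noc4l had the lowest differences, from -4.33 to -3.48, and Gnl2 (1.78), Bop1 (1.43) and Mybbp1a (1.09) were higher. All 3 C/D box proteins were lower, Nop56 by -2.05, Fbl by -2.02 and Nop58 by -1.06. Gran-1 of this gate was 4 cells, whose scores spanned 2.78 to 5.10.

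Myelo-1 set against Gran-2 had 19 of 40 members at least 2-fold lower, beside 27% of all genes, and 3 higher, beside 18.4%, with a median member of -0.95 and a median gene of -0.32. Myelo-2 set against Myelo-1 again had 19 lower and 0 higher, now beside 41.8% and 6.61% of all genes, with medians of -0.81 and -0.58. The step from Myelo-1 to Myelo-2 was thus near the background, and the median member turned to 0.16 with cells centred on their mean gene and to 1.99 with an equal median of widely detected genes. Myelo-1 was 3 cells. The lowest of the 4 steps between numbered states came at Gran-2 for 13 members, at Myelo-1 for 14, at Myelo-2 for 12 and at Myelo-4 for 1. As shares of the list these were 32.5%, 35%, 30% and 2.5%, beside 18.2%, 28.4%, 36.7% and 16.8% of all genes. The share at Gran-2 was thus above that of all genes and the share at Myelo-4 below it. Values of 0 limited the late steps: 8 members were above 0 in no Myelo-1 cell. In Myelo-2, 9 were above 0 in no cell and 24 in 1 to 5 cells, which left little room for a step to Myelo-4.

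Myelo-2 set against Gran-2 differed by -2.10 in score. Of the 40 members, 29 were at least 2-fold lower and 0 higher, beside 47.5% and 2.14% of all genes, with a median of -2.04 for members and -0.93 for all genes. The sign depended on scaling. With cells set to an equal median of 1439 widely detected genes, the median member was 1.15 and the median gene 2.27. Then 3 members were at least 2-fold lower, beside 3.02% of all genes, and 23 higher, a share not counted over all genes. That scaling moves every gene by the same amount, values of 0 included, so members above 0 in no Myelo-2 cell can count as higher. Of the 40 members, 9 were above 0 in no Myelo-2 cell (Bop1, Gar1, Nmd3, Nop14, Pes1, Rrp12, Rrp9, Utp20 and Wdr12), and 0 of 15 cells allows a share of up to 20%. Another 24 were above 0 in 1 to 5 of the 15 cells. Only Nop10 (6 cells), Dkc1 (7), Polr1b (9), Ncl (13), Npm1 (13), Gnl3l (14) and Nip7 (15) were above 0 in 6 or more. Such counts were not made over all genes, and the median cell had 2936 genes above 0 in Myelo-2 and 4595 in Gran-2. Of the 9 members above 0 in no Myelo-2 cell, Bop1, Gar1, Nmd3, Rrp12, Rrp9 and Utp20 had passed only through GMP. The eosinophil list, of which 5 of 6 genes were at 0 in every Myelo-2 cell, summed to 0, 21.4 and 2079 TPM there and to 0, 0 and 61.1 TPM in Gran-2, and its part was not tested.

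**Figure D2:**
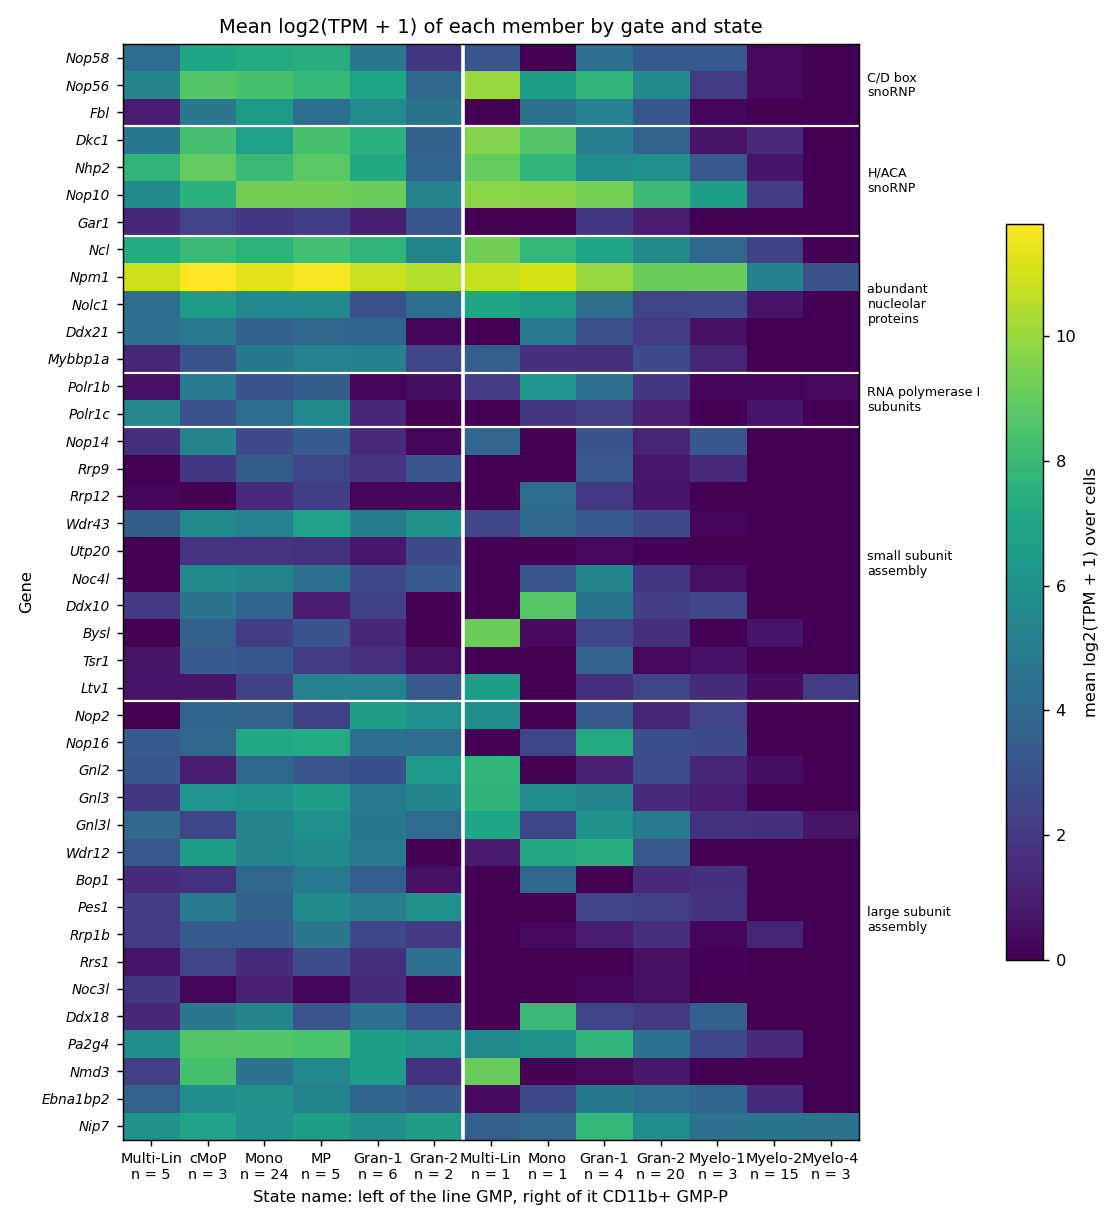
Mean log2(TPM + 1) of each of the 40 members (rows, grouped by role) in each gate and state (columns). Levels are high from cMoP to Gran-1, lower in Gran-2, and near 0 in Myelo-2 and Myelo-4 for most rows, with Npm1, Ncl and Nip7 among the exceptions in Myelo-2.

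The 73 cytosolic ribosomal protein genes, the structural products of the same programme, stood close to their Mono level in some states where the members were lower. Their mean log2(TPM + 1) per cell had medians of 10.67 in Mono, 10.12 in Gran-2, 9.53 in Myelo-1, 6.57 in Myelo-2 and 3.39 in Myelo-4. From Gran-1 to Gran-2 in CD11b+ GMP-P, 1 of 73 ribosomal protein genes was lower by 2-fold or more, with a median of -0.19. For comparison, 22 of 40 members and 27.1% of all genes were. In Gran-1 set against Mono of GMP, 4 of 73 ribosomal protein genes were lower, beside 22.1% of all genes, with a median of -0.07. Both medians turned positive, to 0.11 and 0.12, with cells centred on their mean gene. From Gran-2 to Myelo-2, 73 of 73 were lower by 2-fold or more, beside 47.5% of all genes, with a median of -3.49. From Myelo-1 to Myelo-2, 72 of 73 were, beside 41.8%, with a median of -2.98. With cells set to an equal median of widely detected genes, of which 71 are ribosomal protein genes, those last medians became -0.29 and -0.17. The difference between both lists was not tested. Ribosomal protein mRNAs are far more abundant than most members, and the part of abundance in what can be detected was not tested.

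**Figure D3:**
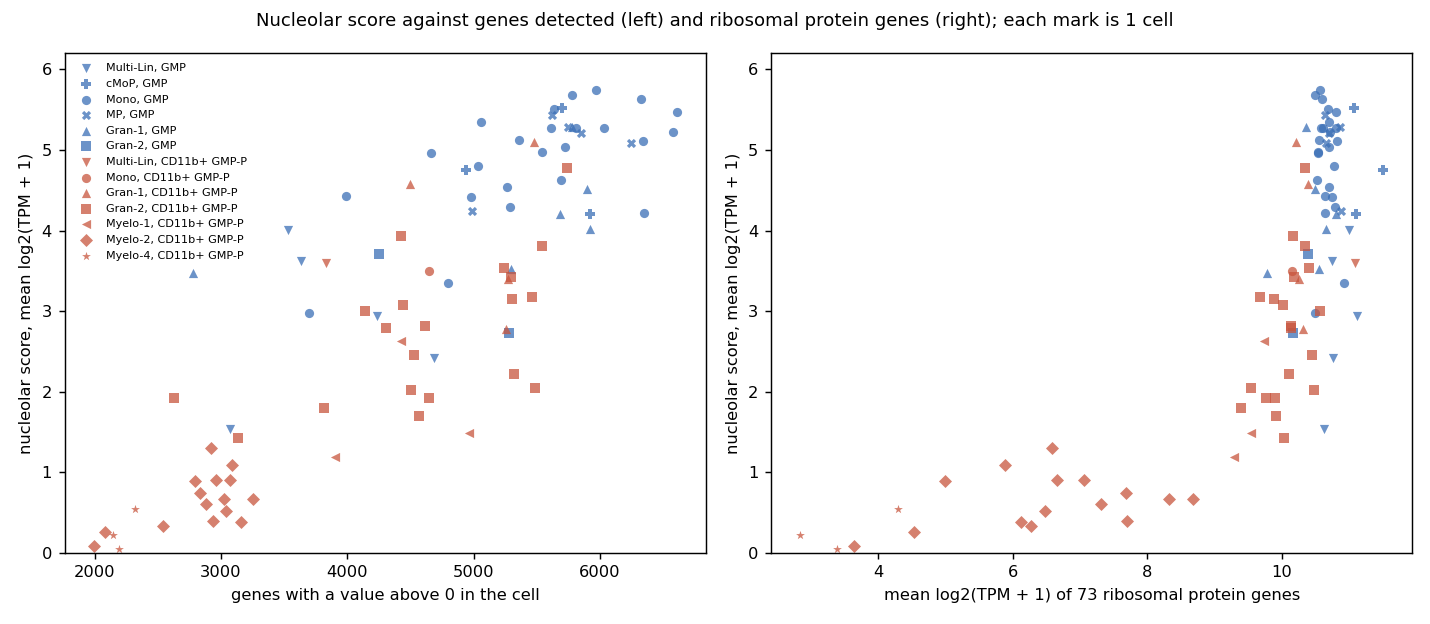
Nucleolar score of each cell against the number of genes detected (left) and against the mean log2(TPM + 1) of 73 ribosomal protein genes (right), with cells marked by gate and state. The score runs from 5.74 to 1.43 across Mono and Gran-2 cells while their ribosomal protein mean stays between 9.4 and 10.92, and Myelo-2 cells lie at or under 8.68.

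By role, the proteins of C/D box snoRNPs, which guide methylation of ribosomal RNA, had the lowest median gate difference of the 6 role groups at -3.99. Of these, 3 of 3 passed the 2-fold mark on the low side, beside 39% of all genes. Nop58, a core scaffold, had a lowest, median and highest level of 2.15, 268 and 749 TPM in Mono, 0, 5.22 and 439 TPM in Gran-2, and 0, 0 and 8.08 TPM in Myelo-2. Its gate difference was -4.18, the Mono and Myelo-2 cells overlapped only at the bottom of the Mono range, and Gran-2 cells spanned both. Nop56, its partner, ran 34.1, 396 and 1158 TPM in Mono and 0, 127 and 1065 TPM in Gran-2. It was 0, 0 and 71.6 TPM in the 3 Myelo-1 cells and 0, 0 and 11.2 TPM in Myelo-2, so every Mono cell exceeded every Myelo-2 cell. Fbl, fibrillarin, the methyltransferase of the particle, had medians of 92.9 TPM in Mono, 7.25 TPM in Gran-2 and 0 TPM in Myelo-2, where 1 of 15 cells was above 0, and differed by -3.34 between the gates.

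H/ACA snoRNP proteins, which guide pseudouridylation, were also lower, 4 of 4 by 2-fold or more, beside 39% of all genes, with a median of -3.35. Nhp2 had a lowest, median and highest level of 15.6, 312 and 848 TPM in Mono, 0, 94.6 and 602 TPM in Gran-2 and 0, 0 and 50.9 TPM in Myelo-2, with a gate difference of -4.03. In Gran-2 against Gran-1 of the same gate it differed by 0.28, and in Myelo-2 against Gran-2 by -5.31. Nop10, the smallest protein of the particle, kept 47.4, 287 and 1010 TPM in Gran-2, above 0 in each of the 20 cells, and was 0, 0 and 280 TPM in Myelo-2, the lowest difference of any member between these states at -5.93. Dkc1, dyskerin, the pseudouridine synthase, differed by -3.91 between the gates. Its 15 Myelo-2 cells ran from 0 to 780 TPM with a median of 0 TPM, and 7 were above 0. Gar1 was low throughout, with a median of 0.31 TPM in Mono, passed only through GMP and differed by -1.28.

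Among abundant nucleolar proteins, 5 of 5 were 2-fold or more lower in CD11b+ GMP-P and again 5 of 5 in Myelo-2 against Gran-2, beside 39% and 47.5% of all genes. Npm1, nucleophosmin, a chaperone of histones and preribosomes, was the most abundant member: 1290, 2497 and 5884 TPM as lowest, median and highest in Mono, 0.53, 882 and 2216 TPM in Gran-2, and 331, 618 and 866 TPM in the 3 Myelo-1 cells. It was 0, 98.8 and 653 TPM in Myelo-2 and 0, 0.30 and 351 TPM in Myelo-4, so all Mono cells exceeded all Myelo-2 cells, and Gran-2 cells overlapped with both. Its gate difference was -3.65. Ncl, nucleolin, ran 22.2, 224 and 560 TPM in Mono, 2.54, 63.9 and 375 TPM in Gran-2, 10.2, 13.7 and 22.4 TPM in Myelo-1 and 0, 2.53 and 28.4 TPM in Myelo-2, and was 0 in all 3 Myelo-4 cells. It had similar means in Mono and Gran-1 of GMP, with a difference of 0.10, and was stepwise lower after that. Ddx21, an RNA helicase, had medians of 13.9 TPM in Mono, 1.33 TPM in Gran-2 and 0 TPM in Myelo-2, and the smallest gate difference of the group at -2.41.

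RNA polymerase I was represented by Polr1b and Polr1c, since Polr1a did not pass. Polr1c, a subunit shared with RNA polymerase III, was above 0 in 28 of 45 cells of GMP (62.2%, with an exact 95% interval of 46.5% to 76.2%) and in 10 of 47 CD11b+ GMP-P cells (21.3%, 10.7% to 35.7%), intervals that cover counting error only, and differed by -2.98. It is 1 of the 10 members that passed only through GMP, so a lower share in the other gate was built into its choice. Polr1b differed by -0.99. It was above 0 in 9 of 15 Myelo-2 cells but at no more than 0.53 TPM, against up to 330 TPM in Mono and 386 TPM in Gran-2.

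Small subunit assembly factors gave 8 of 10 lower by 2-fold or more between the gates, beside 39% of all genes, with a median of -1.48. In Myelo-2 set against Gran-2, 5 of 10 were, near the 47.5% of all genes. Wdr43, a factor of the small subunit processome, had the lowest gate difference of the group at -3.63. Its lowest, median and highest levels were 2.98, 39.5 and 484 TPM in Mono, 0, 2.71 and 236 TPM in Gran-2 and 0, 0 and 0.26 TPM in Myelo-2, so every Mono cell exceeded every Myelo-2 cell. Rrp12 had the highest difference of any member at -0.51, with medians of 0.84 TPM in Mono and 0 TPM in Gran-2. Utp20, a large scaffold of the processome, was above 0 in 24 of 45 GMP and 3 of 47 CD11b+ GMP-P cells and differed by -1.46. It too passed only through GMP, as did Rrp9, Rrp12 and Tsr1.

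Large subunit assembly factors gave 14 of 16 lower by 2-fold or more between the gates, beside 39% of all genes, with a median of -2.60. Of these factors Bop1, Rrs1, Noc3l and Nmd3 passed only through GMP. Pa2g4, which binds preribosomes and ribosomes, had the lowest difference of any member at -4.51. It ran 216, 410 and 1087 TPM as lowest, median and highest in Mono, 0, 31 and 558 TPM in Gran-2, and 0, 0 and 124 TPM in Myelo-2, and the Mono cells all lay above the Myelo-2 cells. Nmd3, the export adaptor of the large subunit, was above 0 in 34 of 45 GMP cells and 5 of 47 CD11b+ GMP-P cells, passed only through GMP, and differed by -4.24. Its median was 34.5 TPM in Mono and 228 TPM in Gran-1 of GMP, but 0 TPM in Gran-1 and in Gran-2 of CD11b+ GMP-P, so it parted between the gates within 1 state name. Noc3l, a factor of early precursors, was the smallest difference of this group at -0.74, with a median of 0 TPM in Mono.

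Nip7, which acts in maturation of the large subunit precursor, was the member above 0 in the most Myelo-2 cells. Its lowest, median and highest levels were 8.52, 58.7 and 310 TPM in Mono, 5.44, 80.5 and 219 TPM in Gran-2, 1.75, 26.9 and 207 TPM in Myelo-2 and 1.74, 64.8 and 69.3 TPM in Myelo-4. It was above 0 in all 92 cells and its ranges overlapped between these states. Within CD11b+ GMP-P its mean log2(TPM + 1) was 7.80 in Gran-1 and 5.71 in Gran-2. The steps were -2.09 to Gran-2, -1.26 to Myelo-1 and 0.13 to Myelo-2. Its gate difference was -0.82 on TPM, 0.02 with cells centred on their mean gene and 0.83 with an equal median of widely detected genes, so its direction was set by the scaling. Gnl3l, a nucleolar GTPase, was above 0 in 14 of 15 Myelo-2 cells, but at a median of 0.37 TPM against 44.6 TPM in Gran-2 and 46.1 TPM in Mono.

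**Figure D4:**
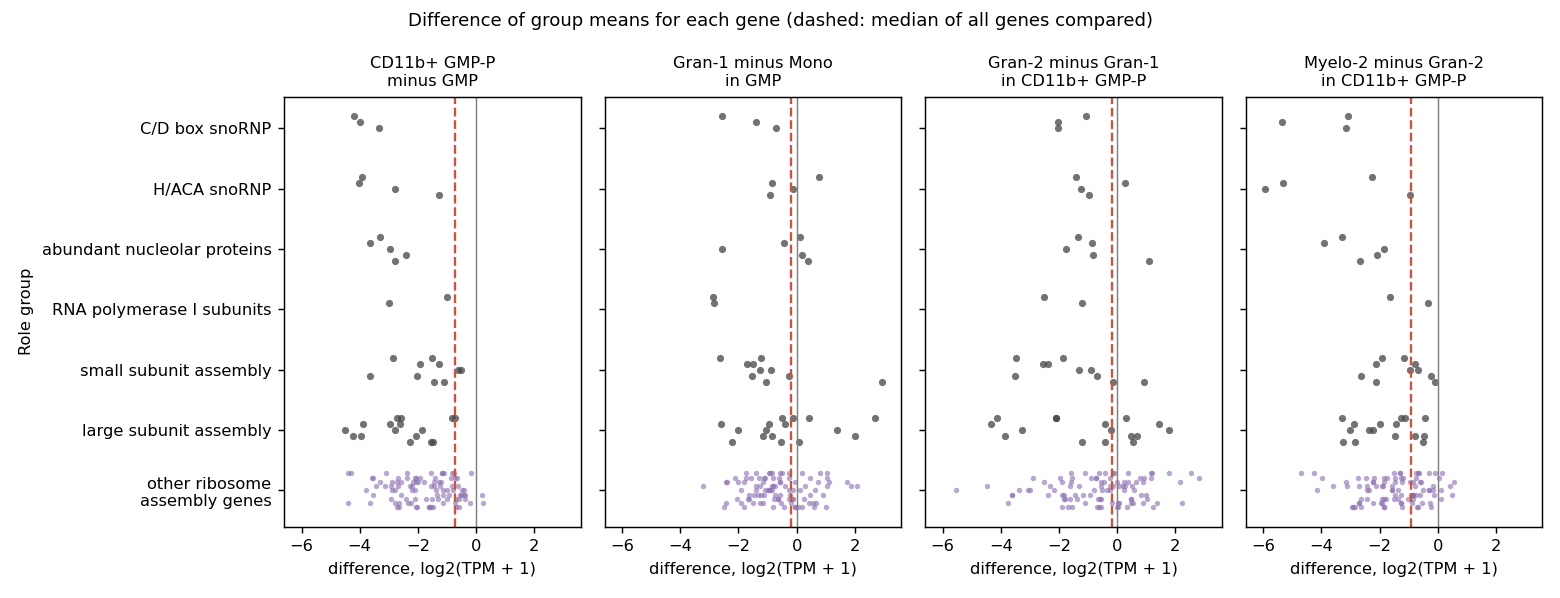
Difference in mean log2(TPM + 1) of each member, by role, and of 95 other ribosome assembly genes, in 4 comparisons. The dashed line in each is the median of all genes compared. All 40 members lie under 0 between the gates (36 with cells centred on their mean gene, 28 with an equal median of widely detected genes). All 40 also do for Myelo-2 against Gran-2 (27 and 7 under those scalings), while the comparisons with Gran-1 have members on each side.

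GMP cells named Multi-Lin had the lowest median score of that gate. The 5 cells scored 1.54, 2.41, 2.93, 3.63 and 4.0, against a median of 5.07 in Mono. Of the 40 members, 30 were at least 2-fold lower than in Mono and 1 higher (Polr1c), beside 45.4% and 8.29% of all genes, and the medians were -1.92 for members and -0.84 for all genes. With cells centred on their mean gene 20 were lower, beside 23.5% of all genes, and 4 higher, with a median of -0.97. With an equal median of widely detected genes 14 were lower, beside 15.3%, and 7 higher, with a median of -0.41. The shares of all genes higher under these scalings were not counted. Ribosomal protein genes differed by a median of 0.30 in the same cells. Fbl was above 0 in 1 of the 5 cells, at 22.4 TPM, where each Mono cell had at least 22.1 TPM. Nhp2 was alike in both, with a median of 314 TPM in Multi-Lin and 312 TPM in Mono. Their median number of genes detected was 3634, and the part of detection in their low score was not tested. Markers of basophils and mast cells, 7 of 7 detected, summed to 963, 5603 and 13379 TPM as lowest, median and highest in these cells, against 0.22, 305 and 1613 TPM in Mono, and the erythroid list reached 1087 TPM. The part of these markers was not tested either. MP cells were close to Mono, with 7 members at least 2-fold lower and 7 higher, beside 13.5% and 20.2% of all genes.

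Other ribosome assembly genes were lower too, by smaller differences. Of 95 such genes compared, 69 were lower by 2-fold or more in CD11b+ GMP-P and 0 higher, beside 39% and 2.72% of all genes, with a median of -1.62. In Myelo-2 set against Gran-2, 58 were lower, beside 47.5% of all genes, with a median of -1.37. These medians turned to 0.03 and 1.82 with an equal median of widely detected genes. Ppan (-4.41), Ftsj3 (-4.40) and Rsl1d1 (-4.30), all of the large subunit pathway, had the lowest gate differences. Ppan had a median of 117 TPM in Mono and 0 TPM in Gran-2 and Myelo-2, Ftsj3 of 93.2, 0 and 0 TPM, and Rsl1d1 of 323, 45.2 and 0 TPM. Ftsj3 passed only through GMP, being above 0 in 39 of 45 GMP and 11 of 47 CD11b+ GMP-P cells. So did other genes of this list, such as Nob1 (29 of 45 and 8 of 47) and Pwp2 (19 of 45 and 4 of 47). For such genes a lower share in CD11b+ GMP-P was built into their choice. Pwp1 (0.24), Rrp36 (0.21) and Riok3 (-0.19), a kinase of late small subunit precursors, had the highest. Riok3 was above 0 in 41 of 45 GMP and 42 of 47 CD11b+ GMP-P cells, with medians of 16.4 and 20.6 TPM.

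Among the regulators, Myc was lower where the members were lower, with exceptions. Its lowest, median and highest levels were 0, 144 and 1037 TPM in Mono, 0, 3.42 and 480 TPM in Gran-2, 0, 22.1 and 57.5 TPM in Myelo-1 and 0, 0 and 0.23 TPM in Myelo-2, and it was 0 in 3 of 3 Myelo-4 cells. Its gate difference was -4.31. In Multi-Lin cells of GMP, where the score was low, Myc had a median of 454 TPM, above that of Mono. Across cells of 1 gate, which share a library and a range of genes detected, Myc and the score had r = 0.07 over 45 GMP cells and r = 0.62 over 47 CD11b+ GMP-P cells, and r = 0.40 over the 20 Gran-2 cells, which became 0.28 without the 2 cells farthest in Myc. Mycn and Mycl were 0 in all cells.

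Mxd1, which competes with MYC for their partner MAX, was above 0 in 4 of 24 Mono, 5 of 20 Gran-2, 10 of 15 Myelo-2 and 3 of 3 Myelo-4 cells. Its median was 0, 0, 0.83 and 50.9 TPM in these states, and its highest level 212, 166, 310 and 529 TPM. By gate it was above 0 in 10 of 45 GMP and 21 of 47 CD11b+ GMP-P cells and passed only through the latter. A higher share there was thus built into its choice. Mxd1 differed by 0.91 between the gates, and by 1.90 in Myelo-2 against Gran-2, where it was at least 2-fold higher. Mxi1, of the same family, differed by 1.11 between the gates and by -0.33 between these states, a sign that turned to 0.17 with granule genes removed, 0.85 with cells centred on their mean gene and 2.86 with an equal median of widely detected genes. Mlx (-0.59) and Mnt (-0.13) were within 2-fold between the gates. Max was above 0 in 9 of 45 and 11 of 47 cells and did not pass.

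**Figure D5:**
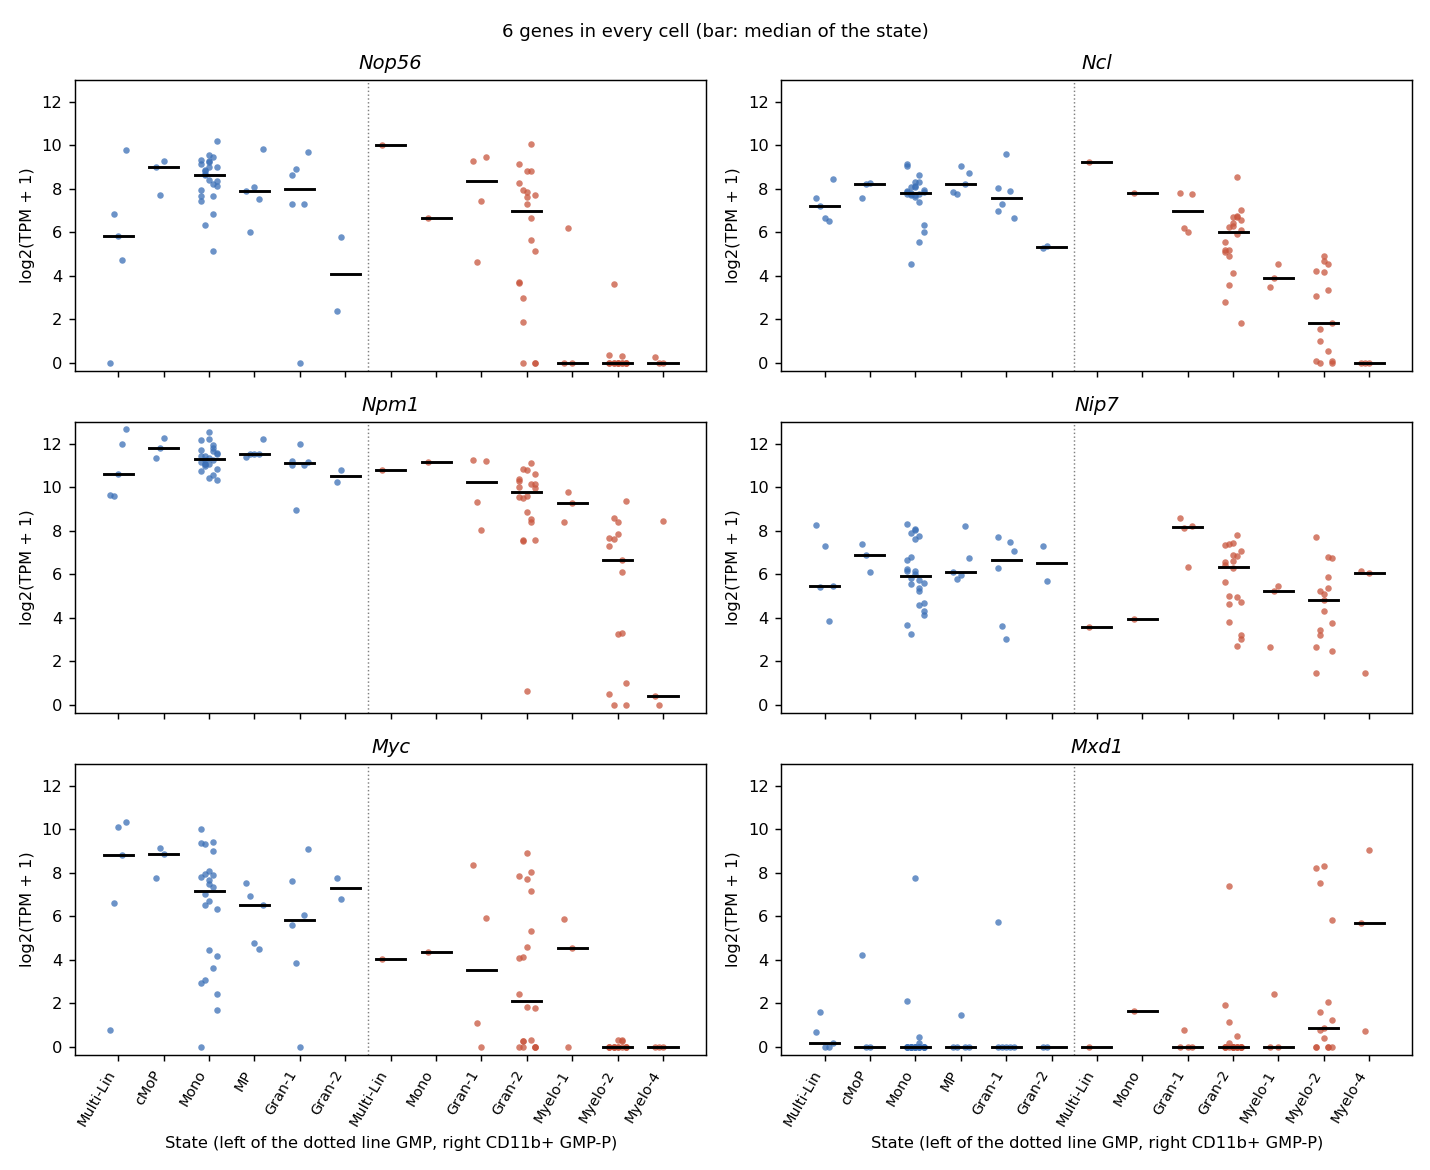
Level of 6 genes in every cell on the log2(TPM + 1) scale, by gate and state. Nop56, Ncl and Npm1 are lower from Gran-2 to Myelo-4, Nip7 keeps a median of 26.9 TPM in Myelo-2, Myc reaches at most 0.23 TPM in Myelo-2, and Mxd1 is above 0 in 10 of 15 Myelo-2 and 3 of 3 Myelo-4 cells.

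MYC with MAX binds the E-box CACGTG, so the promoters of the members were searched for it. RefSeq windows of 250 bases before to 50 after the annotated start (GRCm38.p6) were matched by symbol for 33 of the 40 members, and 8 of 33 (24.2%) held CACGTG, which reads the same on both strands, beside 14 of 79 other assembly genes (17.7%), 751 of 5954 genes compared (12.6%) and 2187 of 27025 in the whole table (8.09%). The 8 were Ltv1, Mybbp1a, Nmd3, Nop2, Pes1, Tsr1, Utp20 and Wdr43. Nop58, Nop56 and Ncl had a window without it, which says only that these letters are not in that window. The 5 windows printed, chosen because the motif lies within 130 bases before to 30 after the start, give the strand of the gene with the E-box in capitals.
Wdr43, chr17:71616085-71616244, plus strand: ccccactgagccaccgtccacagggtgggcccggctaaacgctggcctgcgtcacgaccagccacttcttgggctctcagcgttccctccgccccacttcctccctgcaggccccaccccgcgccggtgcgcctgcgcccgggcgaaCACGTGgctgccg
Nmd3, chr3:69721925-69722084, plus strand: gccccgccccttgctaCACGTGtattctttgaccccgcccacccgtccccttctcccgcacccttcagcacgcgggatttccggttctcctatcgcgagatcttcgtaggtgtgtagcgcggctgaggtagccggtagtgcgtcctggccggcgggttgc
Nop2, chr6:125131753-125131912, plus strand: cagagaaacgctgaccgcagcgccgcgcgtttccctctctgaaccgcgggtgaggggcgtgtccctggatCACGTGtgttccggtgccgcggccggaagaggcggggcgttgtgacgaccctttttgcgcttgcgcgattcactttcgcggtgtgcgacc
Pes1, chr11:3963845-3964004, plus strand: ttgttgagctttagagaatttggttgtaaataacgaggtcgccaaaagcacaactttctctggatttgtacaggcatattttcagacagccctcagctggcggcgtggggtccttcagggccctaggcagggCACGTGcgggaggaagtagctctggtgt
Tsr1, chr11:74897950-74898109, plus strand: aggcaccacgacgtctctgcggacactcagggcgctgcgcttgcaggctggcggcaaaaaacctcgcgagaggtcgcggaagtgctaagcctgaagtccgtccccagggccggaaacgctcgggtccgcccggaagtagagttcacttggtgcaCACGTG

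Counted from the start, with the first transcribed base as 1, the E-box began at base 18 in Wdr43, at -114 in Nmd3, at -60 in Nop2, at 3 in Pes1 and at 25 in Tsr1. These 5 members had gate differences of -3.63, -4.24, -2.59, -2.80 and -2.04, against a median of -2.66 over the list. A match is a description of the window and not a site of binding. Another 3 motifs, added later, were searched on both strands. The ETS-like CCGGAAG was in 11 of 33 member windows (33.3%) and 24.3% of all genes compared, GGCGGG in 22 (66.7%) and 68%, and TCTCGCGAG in 1 (3.03%) and 2.18%.

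Within single states the score still varied from cell to cell. Over the 20 Gran-2 cells, which share a library, it had r = 0.58 with the number of genes detected, -0.62 with the granule share of TPM, 0.42 with Mpo and 0.41 with Elane of primary granules, -0.60 with Camp, which encodes the cathelicidin of secondary granules, -0.60 with S100a8 and -0.13 with Ltf, the lactoferrin of secondary granules. Without the 2 cells farthest in each measure, these became 0.47 for genes detected, -0.38 for the granule share, 0.54 for Mpo, 0.26 for Elane, -0.82 for Camp, -0.30 for S100a8 and 0.36 for Ltf. The values for genes detected, the granule share, Elane and S100a8 were thus smaller in size without 2 cells and kept their sign. Ltf changed sign, and without those cells Camp and Ltf differed in sign. A single member followed the mean of the others weakly: the median r was 0.31 in Gran-2, above 0 for 34 of 40, and 0.23 over 24 Mono cells, above 0 for 32 of 40. Many values are 0 in single cells, and such weak values are given as a description.

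Some levels are uncertain by annotation. Of the members, 13 share exon sequence with a protein-coding gene on the opposite strand in a later build, among them Nop56 with Idh3b, Nhp2 with Rmnd5b, Dkc1 with Mpp1, Gnl3 with Pbrm1 and Bysl with Ccnd3. No source used here gives whether counting used strand, so reads of such pairs cannot be told apart. Npm1 and other abundant members have processed pseudogenes whose reads the counting could split.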

How the data were processed

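Single cells of 2 gates were profiled by SMARTer and Nextera XT RNA-seq, per the labels' protocols. Per the submitters' processing notes, Bowtie2, RSEM and the mm9 build were used, with no versions stated. The deposited table holds log2 values of TPM + 1, which sum to 1000000 TPM per cell apart from the Ly6g row. The second deposited table gives each cell a state score, a number from 1 to 9, with a name. Of all values 80.9% were 0. Every cell was kept, and doublets were not called. The tables held 0 columns of other samples, and the gates shared 0 cell names.

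Means of log2(TPM + 1), with a pseudocount of 1 that understates differences of low genes, were compared with pandas 2.3.3 and numpy 2.4.6. The comparison was tested on simulated data drawn from normal distributions with no floor at 0. With 80.9% of the real values at 0, that test does not show how the comparison performs for genes often at 0. Exact intervals are Clopper-Pearson at 95%, and the limit for a share of 0 is 3 cells. The members and lists were chosen with earlier results of these data known. Genes given with values were, for each role, those with the largest and smallest gate difference, with Ncl, Npm1, Fbl and Nop58, the 3 lowest and 3 highest of the other assembly genes and every passing regulator. Other genes named were chosen after their values were seen. Protein sequences and the mm9 genome were not used here, so planned protein features were not computed.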

Additional observations from a re-analysis of the deposited data

How the results depend on the processing

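Results were recomputed under 40 alternatives for the score differences and 31 for the counts of members, and 32 and 25 stayed within the spread of cells (scores) or 1.5 times (counts). The gate difference in score of -2.51 became -3.72 with a pseudocount of 0.1, -0.87 with an equal median of widely detected genes and -1.21 in cells matched on genes detected. The 35 members at least 2-fold lower became 20 and 19 under the latter 2 settings, beside 5.29% and 14.4% of all genes. The Myelo-2 minus Gran-2 score difference of -2.10 became -3.32 with a pseudocount of 0.1, -1.05 with 10 and -3.31 from mean TPM. It became -0.92 with cells centred on their mean gene and reversed to 1.10 with an equal median. There the 29 lower members became 3, beside 3.02% of all genes, in a scaling that also lifts values of 0. With a pseudocount of 10 or centred cells, 17 were lower, beside 22.4% and 19.3% of all genes. The 17 lower in Gran-1 than in Mono became 8 with a pseudocount of 10, beside 7.38% of all genes. The Gran-2 minus Gran-1 score difference of -1.22 became -0.40 from mean TPM and -0.74 with a pseudocount of 10. The 22 lower members became 13 with a pseudocount of 10 and 15 with an equal median, beside 12.7% and 18.5% of all genes. The 30 members lower in Multi-Lin than in Mono became 19 with a pseudocount of 10, 20 with centred cells and 14 with an equal median. Beside these stood 22.2%, 23.5% and 15.3% of all genes. The cause was not tested. The alternative confined to cells of 2500 to 3500 genes could not be fitted, since Gran-2 had 2 such cells. The setting with genes that pass in CD11b+ GMP-P itself was chosen after seeing the data. No paired analysis was possible because each gate is 1 library and its cells are not matched by number. TPM keeps no depth, so values of 0 limit what can be detected for the low members.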
